A study of Bos taurus with 96 samples.

Results

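The PFKFB and PDK genes, PDP1 and PC encode the enzymes that set how much glucose carbon enters glycolysis and what becomes of the pyruvate at its end. The 10 genes (PFKFB1, PFKFB2, PFKFB3, PFKFB4, PDK1, PDK2, PDK3, PDK4, PDP1 and PC) were found by the bovine RefSeq accession of each probe or by the probe tables of the study, and all 10 had a probe. They were read by 28 of the 34227 probes tested, among 10663 genes that could be named. Each gene is reported by its lead probe, the one above background on most arrays and then the brightest, and each lead probe was above background on 96 of 96 arrays. RNA came from Hereford, Angus and Wagyu x Angus steers. The fat depots were intramuscular (IMF, dissected out of the longissimus dorsi muscle), subcutaneous over the rump (SC), omental (Omen), intermuscular (Inter) and around the kidney (Kid), and had 12 arrays each, 4 per genotype, all from animals that grazed pasture after weaning. The methods put those steers at about 26 months of age, with 259 d on grain. Longissimus dorsi muscle (LD), sampled with its own fat in place, had 24 arrays from pasture animals, 8 per genotype, and 12 from animals given supplement after weaning, 4 per genotype. The labels give 259 d for every sample, both as feedlot time and as age, whereas the methods take part of the LD samples from an earlier kill. The labels do not mark that kill. The methods name supplement animals only with the earlier kill, and pasture animals with both. Depots share steers that the labels do not name, so each p-value measures the spread between arrays.

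Phosphofructokinase is the main control point of glycolysis, and its strongest activator is fructose 2,6-bisphosphate. The PFKFB enzymes carry both a kinase that makes this activator and a phosphatase that removes it, and the isoforms differ in the balance of the pair. At the other end of the pathway, pyruvate dehydrogenase commits pyruvate to acetyl-CoA. The PDK kinases switch the complex off by phosphorylating it, and PDP1, the catalytic subunit of a phosphatase, switches it on. PC (pyruvate carboxylase) instead turns pyruvate into oxaloacetate, which feeds the export of citrate for fatty acid synthesis and the synthesis of glycerol in fat. PFKFB1 is known from liver and muscle, PFKFB3 and PFKFB4 are inducible isoforms, and PDK4 rises with fasting and fatty acid supply.

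A level below is the log2 processed signal of a probe minus the 75th percentile of its array, so 0 marks a spot as bright as that percentile, and a difference of 1 is a 2-fold change in brightness. Levels of different probes are not comparable with each other. Across the 96 arrays 66.2 to 96.5% of probes lay above background. Myofibre markers, 13 of 16 of which were measured, had a summed linear level of 1040 to 3080 in IMF, 4370 to 6090 in LD and 1.29 to 2.43 in SC, and 7 of the 13 were above background on all 12 SC arrays. The 8 adipocyte markers summed to 171 to 665 in IMF, 659 to 1020 in SC and 5.76 to 96.9 in LD. By the test of each marker, all 8 were lower in IMF than in SC. Also higher in IMF than in SC were 5 of 5 smooth muscle, 4 of 5 Schwann cell and 4 of 4 tendon markers. Lower in IMF were 5 of 5 macrophage, 3 of 5 endothelial and 1 of 5 Schwann cell markers. In Inter 4 of 4 tendon and 5 of 13 myofibre markers were higher than in SC. In Kid 5 of 13 myofibre markers were higher and 1 lower, and in Omen 7 of 13 were lower. The part of these markers in the differences of those depots was not tested. 1 Inter array of a Wagyu x Angus steer stood apart with a mean myofibre level of 5.15 where the next was 1.61, and 1 SC array of a Hereford steer with a mean smooth muscle level of 5.60 where the next was 2.29. All 12 IMF arrays were scanned on day 3 and 11 of the 12 SC arrays on day 1, so for most of IMF against SC scan day and depot cannot be told apart. All 12 Inter arrays were scanned on day 2, when no SC array was scanned. For Inter against SC scan day and depot therefore cannot be told apart at all. In bulk samples, fewer cells of a type and less RNA per cell cannot be told apart either.

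In IMF against SC, 7 of the 10 genes differed at an adjusted p under 0.05, 5 higher and 2 lower, where 64.2% of all probes tested did. The median of the 10 differences was 0.45 in log2, against 0.00 (-0.00286) for all probes. In LD against SC, 9 differed, 7 higher and 2 lower, beside 82.9% of all probes, with a median of 1.53. For Inter against SC the count was 6 (3 higher, 3 lower) beside 48.8% of probes, for Kid 6 (3 and 3) beside 41.7%, and for Omen 7 (3 and 4) beside 45.7%. IMF and LD differed in all 10 genes, 2 higher and 8 lower in IMF, beside 75.3% of probes. As shares of 10 genes these counts are near or above their backgrounds, and all comparisons with SC share the same 12 SC arrays. The 12 IMF and the 12 SC arrays did not overlap for 4 of the 10 genes (14.9% of all probes), and SC did not overlap with LD for 6 (39.1%), with Inter for 2 (3.75%), with Kid for 1 (3.52%) and with Omen for 1 (3.97%). IMF and LD did not overlap for 3 (19.5%).

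**Figure D1:**
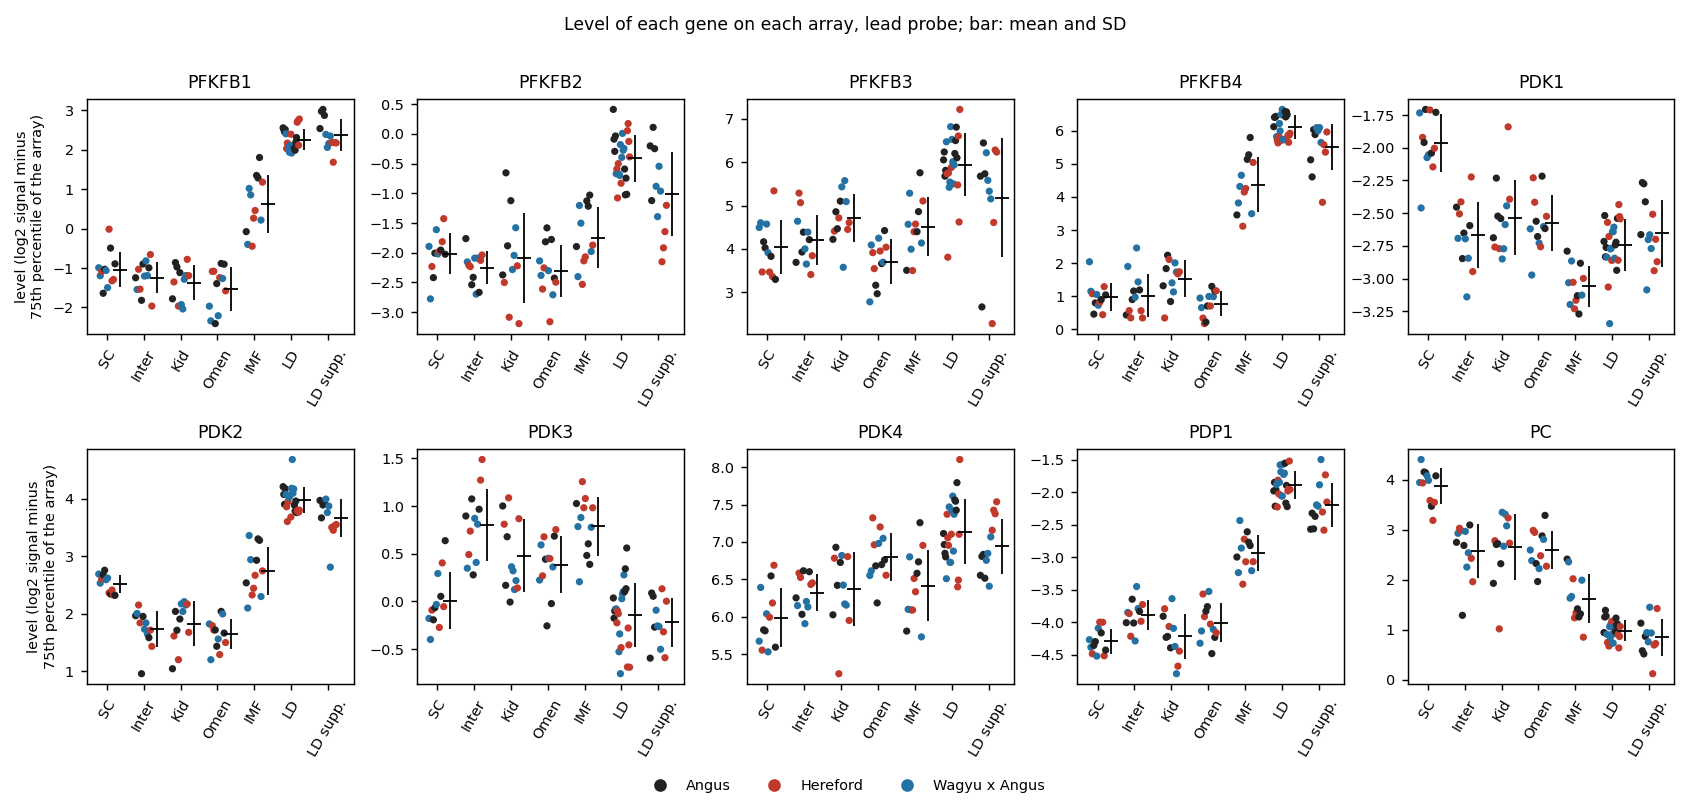
Level of each of the 10 genes on every array (y axis: log2 signal minus the 75th percentile of the array; x axis: 5 fat depots, then LD on pasture and on supplement), with points coloured by genotype and a bar for mean and SD. PFKFB4 lies between 3.12 and 5.80 on the IMF arrays and at or below 2.46 on all arrays of the 4 other fat depots, while PC has its highest levels in SC, from 3.19 to 4.41.

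Among the 4 PFKFB isoforms, PFKFB4 had the widest range over tissues. Its level on the SC arrays ran from 0.44 over a median of 0.96 to 2.04, on the IMF arrays from 3.12 over 4.29 to 5.80, and on the LD arrays from 5.64 over 6.06 to 6.65. All 12 IMF arrays were above all 12 SC arrays, and all 24 LD arrays were too. The IMF minus SC difference was 3.40 ± 0.26 (SE), or 10.6-fold, with an adjusted p of 5.52e-11, and LD exceeded SC by 5.14 ± 0.13, or 35.3-fold (adjusted p = 1.14e-29). IMF in turn was lower than LD by 1.74 (adjusted p = 2.4e-10), and 11 of 12 IMF arrays lay below every LD array. The order was LD, IMF, Kid, Inter, SC and Omen, and of neighbours in that order only LD and IMF, and IMF and Kid, differed. Kid, with levels of 0.34 to 2.24, was higher than SC by 0.55 ± 0.19 (adjusted p = 0.0259) with overlap of the groups, and with scan day as a block the difference was 0.58 (adjusted p = 0.0709). The other PFKFB4 probes gave 0.557 (adjusted p = 0.0213), 0.56 (0.208) and 0.28 (0.394) for Kid minus SC. The highest Inter level, 2.46, belonged to the Inter array with raised myofibre markers, and the Inter minus SC difference was 0.04 with it and -0.09 without it, neither past the test. All 3 other probes of PFKFB4 showed the same direction, with IMF minus SC differences of 1.93, 2.80 and 3.46. The probe that gave 1.93 was above background on 6 of the 12 SC arrays.

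PFKFB1, the isoform known from liver and muscle, followed the same order at the top. It ran from -1.64 over a median of -1.07 to -0.01 in SC, from -0.45 over 0.66 to 1.81 in IMF and from 1.92 over 2.14 to 2.78 in LD. Here 9 of 12 IMF arrays were above every SC array, and all 24 LD arrays were above every IMF array. IMF exceeded SC by 1.67 ± 0.24, a 3.18-fold difference (adjusted p = 1.33e-06), and LD exceeded SC by 3.30 ± 0.12, or 9.87-fold (adjusted p = 3.22e-25). The IMF call missed the threshold with scan day as a block (difference 1.52, adjusted p = 0.0829), a fit in which 1 SC array stands for the depot. SC, Inter, Kid and Omen came last, and no neighbours among them differed. With scan day as a block over all 96 arrays, Inter minus SC (-0.58, adjusted p = 0.0321) and Kid minus SC (-0.53, 0.0225) passed. Kid minus SC also passed with normexp correction (-0.37, adjusted p = 0.0247). Omen minus SC was -0.49 (adjusted p = 0.0466), a call lost in 5 of the alternative settings (adjusted p from 0.0526 with all probes to 0.587 with scan day as a block). The second PFKFB1 probe gave 1.71 for IMF minus SC.

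PFKFB2, a heart isoform whose kinase is activated by phosphorylation, and PFKFB3, the isoform with the strongest bias to its kinase, did not pass the test in IMF against SC. PFKFB2 levels were -2.78 to -1.43 in SC (median -1.99), -2.53 to -1.03 in IMF (-1.88) and -1.08 to 0.41 in LD (-0.39). The IMF minus SC difference was 0.27 ± 0.17 (adjusted p = 0.186), whereas LD exceeded SC by 1.60 ± 0.13, with no overlap (adjusted p = 8.82e-14). Among the fat depots the PFKFB2 groups all overlapped, and Kid rests on 11 arrays because the scanner marked 1 spot as an outlier. PFKFB3 levels were 3.30 to 5.34 in SC (median 3.97), 3.50 to 5.75 in IMF (4.48) and 3.81 to 7.21 in LD (5.97). IMF minus SC was 0.46 ± 0.25 (adjusted p = 0.115), LD minus SC 1.90 ± 0.24 (adjusted p = 3.12e-09) and Kid minus SC 0.66 ± 0.23 (adjusted p = 0.0231). The Kid call was lost with slide as a random block (adjusted p = 0.0559), with scan day as a block (0.0662, and 0.104 over all 96 arrays) and in 1 fit over all arrays (0.0749), with differences of 0.66 to 0.69.

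The 3 probes of PFKFB3 disagreed. The second gave IMF minus SC as 0.67 (adjusted p = 0.0322) and LD minus SC as 2.10 (adjusted p = 2.33e-09), as the lead probe did in direction. The third, which is the one tabulated in the study, ran from 0.99 to 3.18 in SC and from 0.05 to 1.49 in IMF, giving IMF minus SC as -1.07 ± 0.20 (adjusted p = 4.12e-05) and LD minus SC as -0.24 (adjusted p = 0.515). All 3 probes carry the same accession on the array, so the direction of PFKFB3 in IMF depends on the probe. It was the only one of the 18 other probes of the 10 genes that opposed its lead probe in IMF against SC, where 17 of 18 had the same direction.

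**Figure D2:**
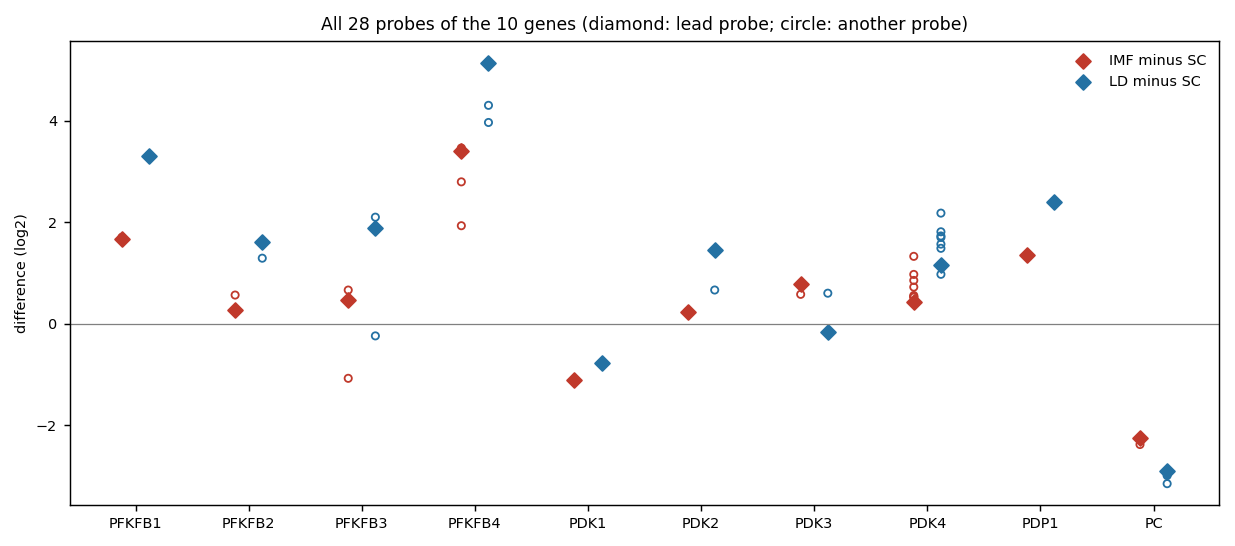
Difference of IMF (red) and of LD (blue) from SC in log2 (y axis) for all 28 probes of the 10 genes (x axis), with a diamond for the lead probe and circles for the others. The probes of PFKFB4, PDK4 and PC lie on one side of 0, and those of PFKFB3 on both sides.

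The PDK isoforms did not move together. PDK1, represented by 1 probe, was the isoform with less signal in IMF. It ran from -2.46 over a median of -1.98 to -1.71 in SC, from -3.27 over -3.08 to -2.79 in IMF and from -3.34 over -2.73 to -2.43 in LD. The whole IMF range lay under the SC range. IMF minus SC was -1.10 ± 0.08, which is 2.14-fold lower (adjusted p = 5.29e-11), and IMF was also lower than LD by 0.32 (adjusted p = 9.62e-05). SC had the highest PDK1 of the 6 tissues, followed by Kid, Omen, Inter and LD, among which no neighbours differed, and IMF had the lowest.

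PDK2, the most widely expressed of the family, did not pass the test between IMF and SC (0.22 ± 0.13, adjusted p = 0.131) and was lower in the other fat depots. Its levels were 2.32 to 2.76 in SC (median 2.56), 0.96 to 2.15 in Inter (1.79), 1.05 to 2.21 in Kid (1.97) and 1.20 to 2.04 in Omen (1.69). Every array of these 3 depots lay below every SC array. Omen minus SC was -0.87 ± 0.09 (adjusted p = 6.49e-08), Inter minus SC -0.78 ± 0.10 (adjusted p = 1.59e-06) and Kid minus SC -0.69 ± 0.12 (adjusted p = 7.28e-05). With scan day as a block Omen minus SC missed the threshold (-0.66, adjusted p = 0.107). IMF levels spread more widely, from 2.10 over 2.71 to 3.36, with 5 arrays above and 2 below the whole SC range. LD, at 3.60 to 4.68, was above every fat array and exceeded SC by 1.45 ± 0.08, or 2.73-fold (adjusted p = 8.33e-20). The second PDK2 probe, above background on 91 of 96 arrays, gave 0.03, -0.06 and -0.12 for Inter, Kid and Omen minus SC, none past the test, so the lower level in those depots was seen with 1 of the 2 probes.

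By its lead probe PDK3 was higher in IMF, Inter, Kid and Omen than in SC. Levels ran from -0.40 over a median of -0.06 to 0.64 in SC, from 0.21 over 0.83 to 1.25 in IMF, from 0.28 over 0.84 to 1.49 in Inter and from -0.76 over -0.10 to 0.56 in LD. The groups overlapped, with 8 of 12 IMF arrays and 8 of 12 Inter arrays above every SC array. Inter exceeded SC by 0.79 ± 0.14 (adjusted p = 4.02e-05), IMF by 0.78 ± 0.12 (6.62e-06), Kid by 0.47 ± 0.14 (0.00797) and Omen by 0.38 ± 0.12 (0.013), all by limma with adjustment over all probes. LD minus SC was -0.15 (adjusted p = 0.214), and IMF exceeded LD by 0.93 ± 0.12 (adjusted p = 4.65e-09). With scan day as a block LD minus SC passed at -0.31 (adjusted p = 0.0055, and over all 96 arrays 0.0112). The second PDK3 probe agreed for IMF minus SC (0.58) and Inter minus SC (0.56), but did not pass the test for Kid minus SC (0.16, adjusted p = 0.364) or Omen minus SC (0.049, adjusted p = 0.721), and gave LD minus SC as 0.60 and IMF minus LD as -0.02 (adjusted p = 0.84). With scan day as a block IMF minus SC fell to 0.15 (adjusted p = 0.769) and Omen minus SC to -0.19 (adjusted p = 0.75), each resting on the 1 SC array of that scan day, and Kid minus SC was 0.385 (adjusted p = 0.0717).

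PDK4, the isoform induced by fasting and fatty acids, was lowest in SC. It ran from 5.53 over a median of 5.91 to 6.69 in SC, from 5.73 over 6.42 to 7.26 in IMF, from 6.19 over 6.73 to 7.32 in Omen and from 6.40 over 7.10 to 8.10 in LD. IMF, Omen and LD each overlapped with SC, and 21 of 24 LD arrays were above every SC array. LD exceeded SC by 1.15 ± 0.15 (adjusted p = 4.59e-09), Omen by 0.81 ± 0.14 (6.68e-05), IMF by 0.43 ± 0.17 (0.0317) and Inter by 0.34 ± 0.13 (0.036). The IMF call was lost with slide as a random block (0.43, adjusted p = 0.0598), with array-mean centring (0.34, 0.0726) and with scan day as a block (0.82, 0.197, and over all 96 arrays 0.22, 0.384). The Inter call was lost with the replicate block (adjusted p = 0.0556), in 1 fit over all arrays (0.0869) and with slide as a random block (0.0885). Kid minus SC was 0.38 ± 0.18 by the lead probe (adjusted p = 0.0833), but all 7 other probes of PDK4 were higher in Kid, by 0.54 to 1.64. For IMF minus SC the 8 probes gave 0.43 to 1.33, and all 8 passed the test. Omen exceeded IMF by 0.38 (adjusted p = 0.0459) and Inter by 0.47 (adjusted p = 0.00968). Of the 7 other probes 5 passed for Omen against IMF and all 7 for Inter against SC.

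PDP1, which reactivates pyruvate dehydrogenase, was among the genes with the clearest separation of IMF from SC. Levels ran from -4.52 over a median of -4.33 to -4.00 in SC, from -3.42 over -2.93 to -2.44 in IMF and from -2.23 over -1.92 to -1.52 in LD. None of the 3 ranges overlapped. IMF exceeded SC by 1.36 ± 0.10, or 2.57-fold (adjusted p = 3.72e-11), LD exceeded SC by 2.40 ± 0.08, or 5.29-fold (adjusted p = 9.33e-27), and IMF was lower than LD by 1.04 (adjusted p = 2.85e-13). Inter and Omen were higher than SC by 0.40 (adjusted p = 0.000625) and 0.29 (adjusted p = 0.0242), but these directions turned with the background correction. The Omen call was also lost with slide as a random block (adjusted p = 0.0641), the authors' table (0.0753) and quantile normalization (0.302). It was lost with scan day as a block too (difference 0.38). Under normexp correction Inter, Kid and Omen minus SC were -0.28, -0.41 and -0.31, all past the test, in a fit where the median of all probes moved to -0.28, -0.25 and -0.26. This signal was low on the array, and PDP1 has a single probe.

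PC showed the reverse order of tissues. Its level ran from 3.19 over a median of 3.97 to 4.41 in SC, from 0.85 over 1.52 to 2.41 in IMF and from 0.64 over 0.95 to 1.39 in LD. No IMF or LD array reached the SC range, and 7 of 12 IMF arrays were above every LD array. IMF minus SC was -2.25 ± 0.17, which is 4.77-fold lower (adjusted p = 4.05e-11), and LD minus SC -2.89 ± 0.09, or 7.44-fold lower (adjusted p = 1.44e-26). Inter (1.29 to 3.096), Kid (1.02 to 3.35) and Omen (1.96 to 3.29) lay between, lower than SC by 1.30, 1.22 and 1.28, with adjusted p-values of 2.92e-06, 5.23e-05 and 2.83e-07. They did not pass the test against each other, and IMF was lower than each of them by 0.95 to 1.03. The second PC probe gave -2.38 for IMF minus SC and the third, above background on 60 of 96 arrays, gave -2.28. Of adipocyte markers, 8 of 8 were lower in IMF and in LD than in SC, as were 2 of 8 in Inter, Kid and Omen, with 1 of 8 higher in Inter and in Omen. The part of these markers in the PC differences was not tested.

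**Figure D3:**
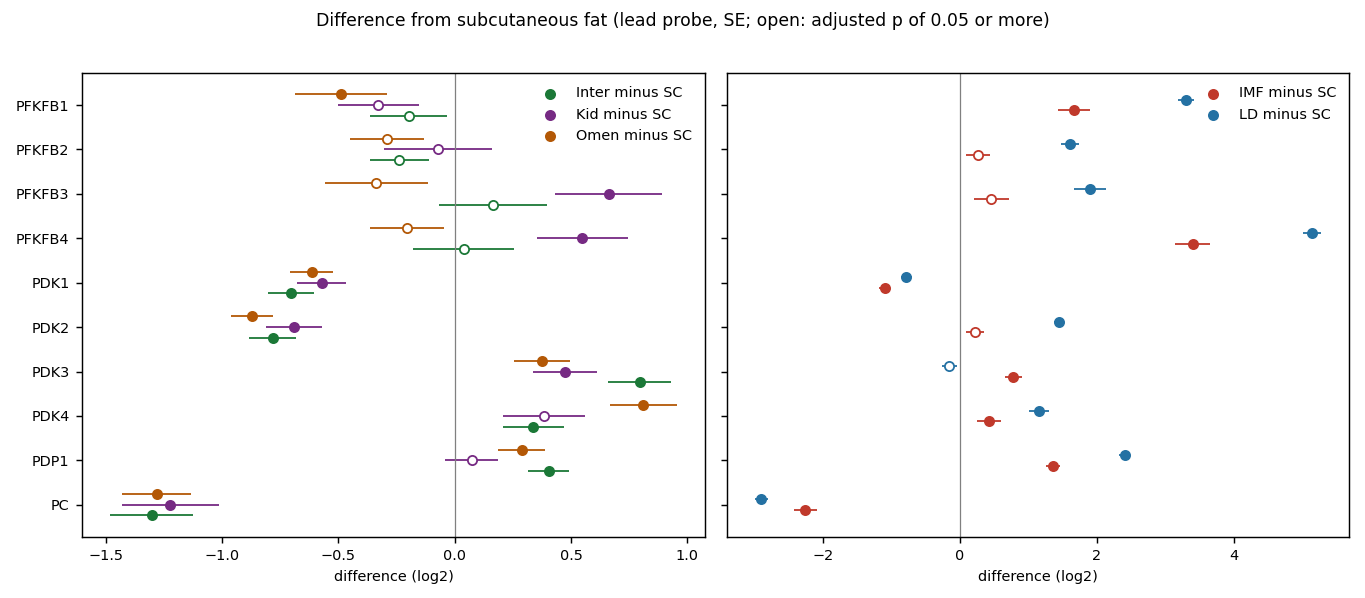
Difference from SC in log2 (x axis) for each gene (y axis), left for Inter, Kid and Omen, right for IMF and LD, with SE bars and open points where the adjusted p is 0.05 or more. On the right, PFKFB4 reaches 3.40 in IMF and 5.14 in LD and PC falls to -2.25 and -2.89; on the left PDK2 and PC are lower in all 3 depots.

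Set against SC and LD together, 5 of the 10 genes had an IMF level between those tissues by their lead probes, past the test on both sides. This pattern was shown by 36.7% of all probes. PFKFB1, PFKFB4, PDK4 (whose IMF minus SC call was lost in the settings above) and PDP1 were above SC and below LD, and PC was below SC and above LD. PDK3 by its lead probe was higher in IMF than in both, a pattern shown by 6.23% of all probes, and its second probe did not show it. PDK1 was lower in IMF than in both, as were 7.36% of all probes. PFKFB2, PFKFB3 and PDK2 by their lead probes were below LD and did not pass the test against SC. By its second probe PFKFB3 lay between SC and LD (0.67 against SC, -1.44 against LD). By the probe tabulated in the study it lay below both (-1.07 and -0.84). PFKFB3 in IMF minus LD was -1.44 with LD on pasture and -0.68 with LD on supplement (adjusted p = 0.152). With the 8 LD arrays and 12 IMF arrays of scan day 3 alone, PFKFB4 was lower in IMF by 1.96, PFKFB1 by 1.45 and PDP1 by 1.07, PDK3 was higher by 0.58, and PDK1 was lower by 0.35. The LD arrays of that day came from Angus and Wagyu x Angus alone, whereas the IMF arrays also included Hereford.

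Myofibre markers moved with most of these genes among the 12 IMF arrays themselves. The myofibre score, the mean log2 level of the 13 markers on an array, ran from 5.50 to 7.36 in IMF. The level of PFKFB1 correlated with it at r = 0.94 (permutation p = 2e-05; Spearman rho = 0.85, permutation p = 0.00092), PDK2 at 0.88 (p = 0.00028; rho = 0.88, p = 0.00036), PFKFB4 at 0.87 (p = 0.00032; rho = 0.81, p = 0.00236) and PFKFB2 at 0.85 (p = 0.0008; rho = 0.80, p = 0.00307), all by two-sided permutation. PDK4 and PDP1 had an r of 0.795 each (permutation p = 0.0028 and 0.00201; rho = 0.84 and 0.76, p = 0.001 and 0.00563), and PFKFB3 one of 0.69 (permutation p = 0.0137; rho = 0.75, p = 0.00691). PC and PDK3 ran the other way, with an r of -0.80 (permutation p = 0.00204; rho = -0.685, p = 0.0167) and -0.615 (permutation p = 0.0348; rho = -0.615, p = 0.0357). PDK1, at r = -0.19 (permutation p = 0.551; rho = -0.245, p = 0.444), showed no detectable relation. These are 10 relations with unadjusted p-values, and 21.2% of all probes had an r of 0.6 or more and 21.3% one of -0.6 or less over the same arrays. Without the 2 arrays farthest from the median score, r was 0.90 for PFKFB1, 0.83 for PDK2, 0.86 for PFKFB4, 0.73 for PFKFB2, 0.87 for PDK4, 0.75 for PFKFB3, -0.71 for PC and -0.18 for PDK1, while PDP1 (0.63, permutation p = 0.0538) and PDK3 (-0.59, permutation p = 0.0711) then missed 0.05. All 12 arrays share a scan day and lie on slides of 1 depot, and the part of the myofibre markers in the depot differences was not tested.

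**Figure D4:**
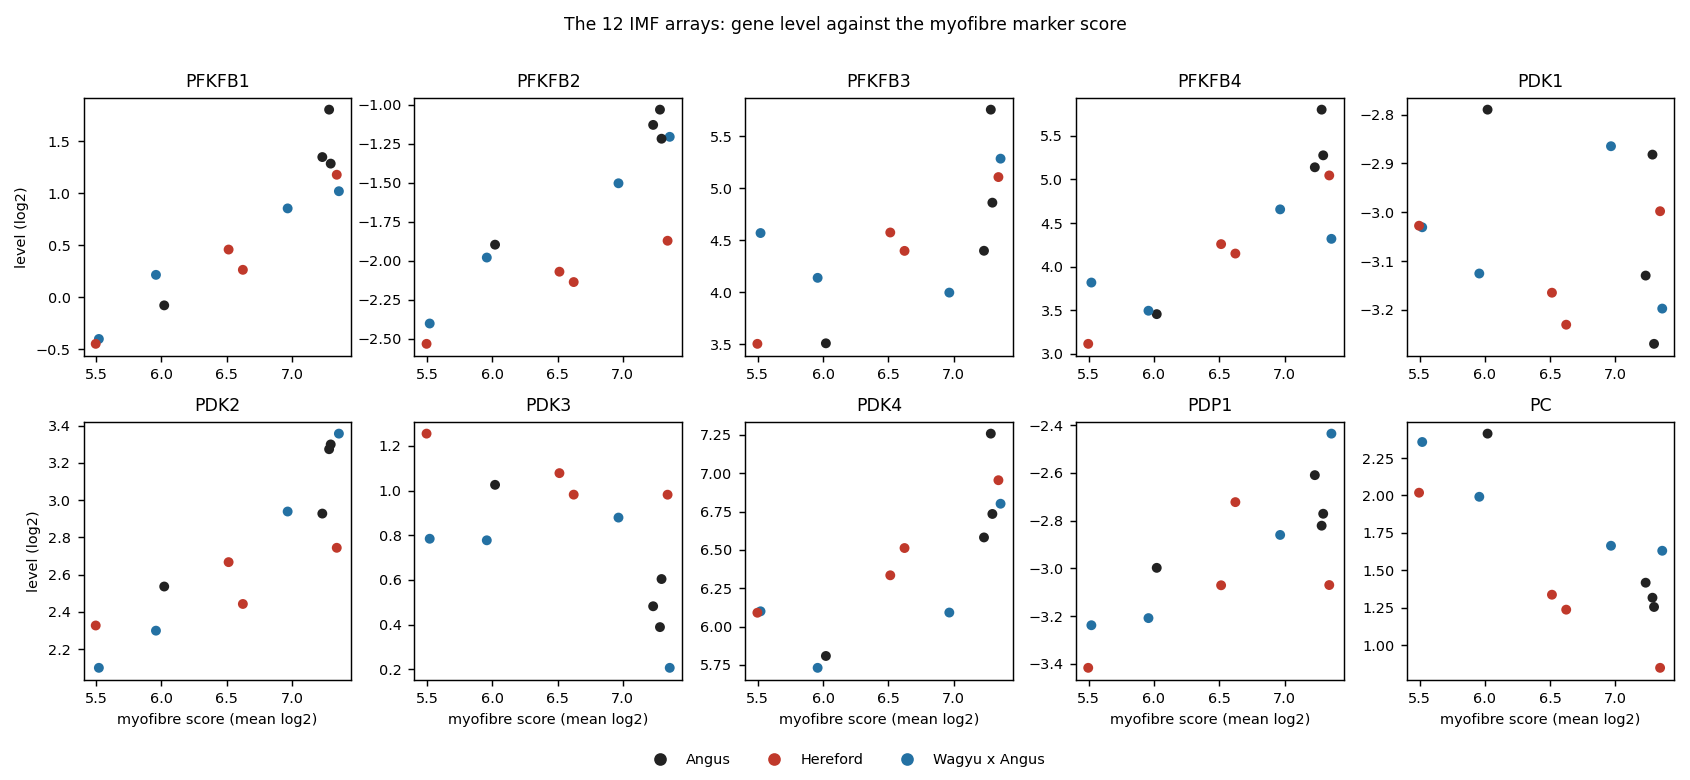
Level of each gene (y axis, log2) against the myofibre score (x axis, mean log2 level of 13 markers) on the 12 IMF arrays, coloured by genotype. The points of PFKFB1 run upwards (r = 0.94), those of PC downwards (r = -0.80) and those of PDK1 show little slope (r = -0.19).

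Among Inter, Kid and Omen fewer of the 10 genes passed the test. None differed between Inter and Kid after adjustment (limma), beside 15.4% of all probes, and 4 had an unadjusted p under 0.05, beside 31.2% of probes. Between Inter and Omen 2 differed (13.6% of probes), PDK3 higher in Inter by 0.42 (adjusted p = 0.0425) and PDK4 lower by 0.47. None of the 7 other PDK4 probes passed there (adjusted p from 0.0691 to 0.603, all lower in Inter), whereas the second PDK3 probe did (0.51, adjusted p = 0.00891). Between Kid and Omen 2 differed (12.1% of probes), PFKFB3 higher in Kid by 0.9996 ± 0.21 (adjusted p = 0.00381) and PFKFB4 higher by 0.75 ± 0.19 (adjusted p = 0.0115). Neither other PFKFB3 probe passed there, with 0.74 (adjusted p = 0.0641) and, for the one tabulated in the study, -0.32 (adjusted p = 0.374), whereas 2 of the 3 other PFKFB4 probes did. IMF differed from Inter in 7 genes (62.7% of probes), from Kid in 6 (55.8%) and from Omen in 10 (56.2%). LD differed from Inter in 9 (83.6%), from Kid in 10 (79.8%) and from Omen in 10 (81.9%). In the test over all 5 depots, 10 of 10 genes passed, beside 87.2% of probes, and PFKFB2 missed the threshold with array-mean centring (adjusted p = 0.133) and with slide as a random block (0.0953). Scan day followed depot for many of these pairs, with Inter on day 2 and 10 of 12 Omen arrays on day 3, and with scan day as a block 0 of 10 genes passed between Kid and Omen (0.821% of probes) and between Inter and Omen (1.42%).

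The neighbouring steps of the pathway were read from 4 lists of genes. Of the glycolysis genes, 24 of 25 were measured. In IMF against SC 14 were higher and 8 lower (64.2% of all probes differed), with a median difference of 0.78 against 0.00 (-0.00286) for all probes, and in LD against SC 15 were higher and 8 lower (median 1.81), where 82.9% of probes differed. The highest in IMF were PGAM2, the muscle phosphoglycerate mutase, at 9.60 ± 0.29, and FBP2, the muscle fructose bisphosphatase, at 9.37 ± 0.40. The lowest were HK3, a hexokinase of blood cells, at -2.17 ± 0.33, and LDHB, the heart-type lactate dehydrogenase subunit, at -1.55 ± 0.16, and these 4 had adjusted p-values of 3.47e-19, 6.05e-16, 3.43e-06 and 1.41e-08. In Inter, Kid and Omen against SC, 1, 1 and 2 of the 24 were higher and 8, 10 and 14 lower, with medians of -0.19, -0.23 and -0.39, beside 48.8, 41.7 and 45.7% of probes called.

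Of the pyruvate dehydrogenase complex itself 6 of 7 genes were measured, and all 6 differed between IMF and SC, beside 64.2% of all probes, which is also the background of the IMF counts that follow. The 4 genes for subunits of the complex were higher, led by DLD (2.42 ± 0.22, adjusted p = 1.52e-09) and the E1 subunit gene PDHB (1.09 ± 0.17, adjusted p = 4.89e-06). PDP2, the second phosphatase of the complex, was lower at -1.90 (adjusted p = 5.2e-08), as was PDPR, the regulatory partner of PDP1, at -0.47 (adjusted p = 0.00427). PDP2 was also lower in LD than in SC, at -4.82 (adjusted p = 9.25e-27), so PDP1 and PDP2 differed from SC in opposite directions. Of 15 genes for carriers and exits of pyruvate, all measured, 5 were higher in IMF and 7 lower. SLC16A3, a lactate exporter, was higher by 3.66 ± 0.33 (adjusted p = 1.28e-09) and MDH2, the mitochondrial malate dehydrogenase, by 0.94 ± 0.19, while PCK2, the mitochondrial PEP carboxykinase, was lower at -2.92, as was ME1, the cytosolic malic enzyme that makes NADPH, at -1.75. Of 11 regulators 10 were measured, 2 of them higher (PPARGC1A by 1.51 ± 0.23 and ESRRA by 1.07 ± 0.18, a coactivator and a nuclear receptor of oxidative genes) and 6 lower, the lowest being PPARG (-1.35 ± 0.17) and MLXIPL (-1.33 ± 0.18). PGAM2, FBP2 and other muscle isoforms stood in these lists beside the myofibre markers, which were higher in IMF for 13 of 13.

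No gene passed the test for breed in fat. Over the 60 fat arrays with depot in the model, 0 of 10 genes passed (limma, 3 at an unadjusted p under 0.05: PFKFB2, PDK3 and PDK1), beside 3.20% of probes, or 16.6% unadjusted. Within IMF, SC, Inter, Kid and Omen the count was 0 in each depot, with 1, 1, 2, 1 and 1 genes under 0.05 unadjusted, beside 0.0555, 0, 0, 0 and 0.0146% of probes adjusted and 13.9, 7.77, 4.63, 3.92 and 6.74% unadjusted. Depot by breed gave 0 of 10 (1 unadjusted) beside 0% of probes (7.34% unadjusted), so no depot difference above was shown to depend on genotype. In LD on pasture, 3 genes differed by breed, beside 14.7% of probes. The PFKFB4 level ran from 6.13 over a median of 6.43 to 6.58 on the Angus arrays, from 5.64 over 5.78 to 5.93 on the Hereford arrays and from 5.73 over 6.11 to 6.65 on the Wagyu x Angus arrays, with an adjusted p of 0.00648 over the 3 breeds. Angus and Hereford arrays did not overlap for it. PDK2 had medians of 3.93, 3.78 and 4.08 in the same order (adjusted p = 0.0205), and PC medians of 1.17, 0.80 and 0.92 (adjusted p = 0.0418), with overlap in PC. The PDK2 call was lost with quantile normalization (adjusted p = 0.0881) and with its second probe (0.952), and the PC call with normexp correction (0.0649) and the authors' table (0.11). The Angus LD arrays on pasture shared no slide with the other genotypes, so slide and genotype cannot be told apart for Angus.

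In LD, supplement after weaning was compared with pasture within breed. 4 of 10 genes were lower with supplement and none higher, beside 11.2% of all probes, and the median of the 10 differences was -0.25 against 0.01 for all probes. PFKFB4 ran from 3.84 over 5.77 to 6.10 with supplement and from 5.64 over 6.06 to 6.65 on pasture, a difference of -0.60 ± 0.15 (adjusted p = 0.00964). PFKFB2 ran from -2.15 over -1.04 to 0.11 and from -1.08 over -0.39 to 0.41, also a difference of -0.60 ± 0.17 (adjusted p = 0.0189). PDK2 was lower by 0.31 (adjusted p = 0.0163) and PDP1 by 0.31 (adjusted p = 0.0152). The second PDK2 probe gave 0.092 (adjusted p = 0.671), and the second PFKFB2 probe -0.57 (adjusted p = 0.0421). The 3 other PFKFB4 probes gave -0.62 (adjusted p = 0.00733), -0.48 (0.121) and -0.56 (0.152), so 1 of the 3 passed. Under normexp correction PDP1 was -0.18 (adjusted p = 0.221) and PDK2 -0.32 (0.0591). For all 4 genes the groups overlapped. PFKFB3 (-0.76 ± 0.34, adjusted p = 0.141), PC, PDK1, PDK3, PDK4 and PFKFB1 did not pass. The methods name supplement animals only with the earlier kill and pasture animals with both, and the labels do not mark the kill. Diet and kill are therefore in part confounded, and every LD slide held 1 diet only. With slide as a random block the 4 differences were as above but 0 of the 4 passed (limma; adjusted p from 0.502 to 0.646), in a fit that called 1 of 34227 probes, and with scan day as a block PFKFB2 and PFKFB4 did. With scan day as a block over all 96 arrays PFKFB2 and PDP1 passed, and PFKFB4 (-0.48, adjusted p = 0.187) and PDK2 (-0.28, 0.167) did not. In LD 4 of 8 adipocyte markers were lower, 4 of 5 measured endothelial markers higher and 3 of 13 myofibre markers higher with supplement. With the adipocyte mean as a covariate, PFKFB2 (-0.72) and PDP1 (-0.36) passed, and PFKFB4 (-0.51, adjusted p = 0.0691) and PDK2 (-0.28, adjusted p = 0.0761) did not.

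**Figure D5:**
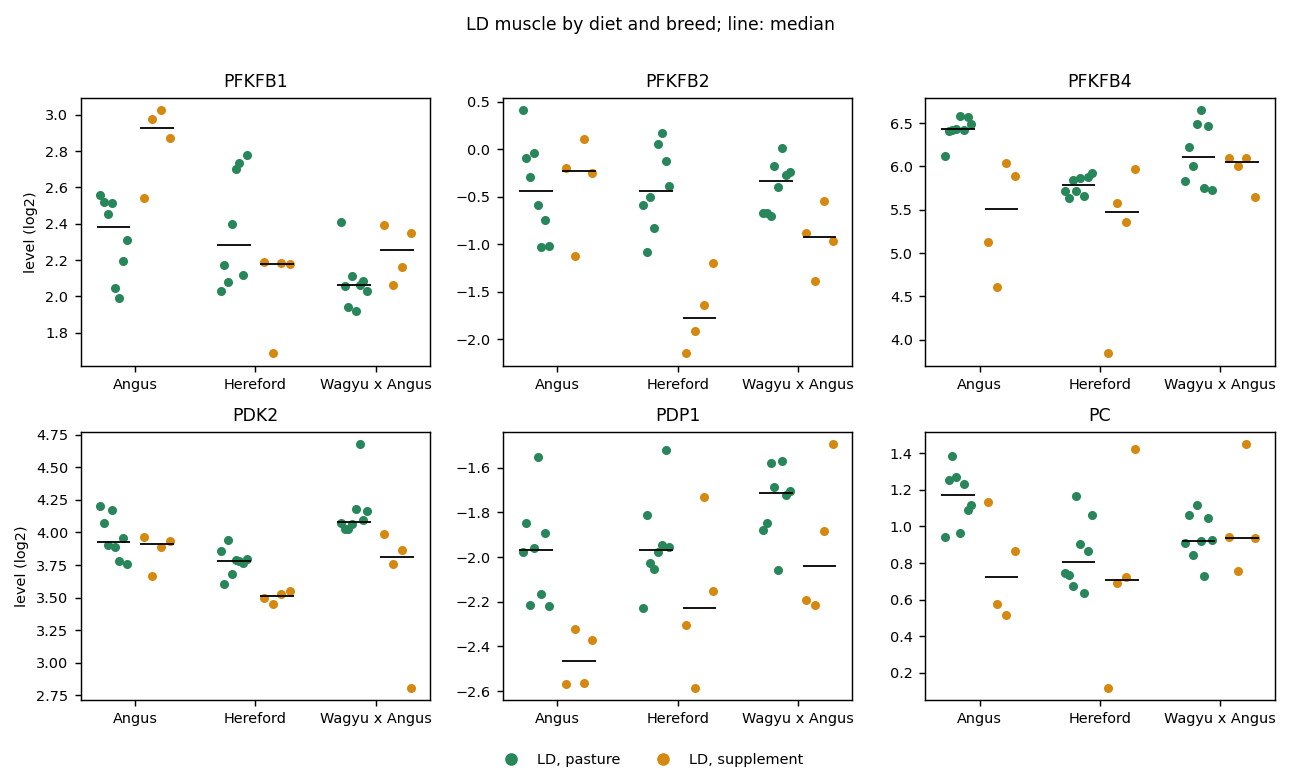
Level (y axis, log2) of 6 genes in LD by genotype (x axis) on pasture (green, 8 arrays each) and supplement (orange, 4 arrays each), with a line at the median. PFKFB1 with supplement is above all pasture arrays in 3 of 4 Angus steers, and PFKFB2 with supplement is lowest in Hereford, from -2.15 to -1.20.

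For 2 genes the diet difference passed the test for dependence on breed, beside 16.2% of probes. The 4 supplement arrays of each genotype lay on 1 slide of their own, so slide and this interaction cannot be told apart. Those of Angus were scanned on day 2 and those of the other genotypes on day 1, and scan day was not in this fit. The PFKFB1 difference was 0.53 ± 0.14 for Angus, -0.32 ± 0.14 for Hereford and 0.17 ± 0.14 for Wagyu x Angus (interaction adjusted p = 0.0135). In Angus its levels were 2.54 to 3.03 with supplement and 1.99 to 2.56 on pasture. The Angus pasture arrays scanned on day 2, the day of the Angus supplement arrays, had 2.45 to 2.56. On day 1 the Hereford levels were 1.69 to 2.19 with supplement and 2.03 to 2.40 on pasture. PFKFB2 differed by 0.06 ± 0.25, -1.32 ± 0.25 and -0.55 ± 0.25 in the same order (interaction adjusted p = 0.0216), and all 4 Hereford supplement arrays (-2.15 to -1.20) were below all 8 Hereford pasture arrays (-1.08 to 0.17). On scan day 2 the Angus PFKFB2 levels were -1.12 to 0.11 with supplement and -0.30 to 0.41 on pasture. The Hereford pasture arrays of scan day 1 had -1.08 to -0.50. The PFKFB2 interaction missed the threshold without Hereford supplement replicate 1 (adjusted p = 0.0637) or without Angus supplement replicate 3 (0.0638), with normexp correction (0.118) and by its second probe (0.549). Without that Hereford array the PFKFB4 interaction passed (adjusted p = 0.0412). The second PFKFB1 probe passed (adjusted p = 0.0025). Of the glycolysis genes, 5 of 24 were higher with supplement and none lower (11.2% of all probes differed by diet), with PFKP, the platelet-type phosphofructokinase, at 0.43 ± 0.09 (adjusted p = 0.00145) and PGK1, a phosphoglycerate kinase, at 0.42 ± 0.14 (adjusted p = 0.0406) the highest. The lowest of that list, ENO2 at -0.28 and LDHB at -0.21, did not pass.

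The genes most like each member over the 60 fat arrays were ranked by Pearson's r, a description in which arrays share slides, scan days and steers. PFKFB4 was closest to MAPK6 (0.95), ZNF710 (0.95) and C18H19orf47 (0.95), and PFKFB1 to TRAPPC4 (0.91), GAMT (0.91) and LOC617654 (0.91). Over the 48 arrays without IMF these gave way to MED27 (0.66), EMG1 (0.65) and HARS1 (0.62) for PFKFB4, and to DAB1 (0.63), GLYCTK (0.62) and ISOC1 (0.61) for PFKFB1. PC was closest to CPLX1 (0.92), TXNDC12 (0.91) and MGST3 (0.91), and without IMF to PIGQ (0.90), TUBGCP2 (0.90) and PDK2 (0.89), itself a member. That r is for the lead probe of PDK2, whose lower level in Inter, Kid and Omen the second probe did not show. PDK4 was closest to DDIT4 (0.73), FLT1 (0.71) and ADAMTS1 (0.705), and without IMF to ADAMTS1 (0.82), RASIP1 (0.815) and TSC22D1 (0.80). PFKFB3 had TSFM (0.68), TIMM13 (0.66) and MRPL46 (0.66), and without IMF RBM8A (0.72), TGM3 (0.67) and C6H4orf19 (0.66).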

How the data were processed

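Total RNA was hybridised to 1-colour Agilent bovine arrays, 96 in all, 4 on each of 24 slides. The authors deposited scanner output holding, per spot, a processed signal, which is an intensity with the background already subtracted and not scaled between arrays, and a table of log2 values, which were recomputed here as log2 of the median signal minus the median local background. The processed signal was set to log2 and the 75th percentile of the array over the 43653 non-control probes was subtracted. Outlier spots were left out, no saturated spot was seen, and the 34227 probes of the authors' deposited log2 table were tested. The number of arrays limits the precision.

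Groups were compared in R 4.3.3 with limma 3.58.1 (lmFit, eBayes), each tissue pair on its own arrays, with Benjamini-Hochberg adjustment over all probes tested and a threshold of 0.05. Breed and diet were tested by F tests or with the other factor in the model. Correlations with the myofibre score used 100000 permutations. The genes named are the 10 members, the 2 highest and 2 lowest of each pathway list in IMF against SC, and the 3 genes most like 5 of the members. In the diet contrast the glycolysis list is named the same way. The members and lists were chosen with earlier results of these data known. Mapping used RefSeq accessions (annotation ARS-UCD2.0, names only) and the study's probe tables. PFKFB4's lead probe, PDK1 and PDP1 are named through the latter.

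Replicate numbers did not pair the arrays, since same-numbered deviations correlated at 0.0105 to 0.0311 on average. Alternatives covered the authors' table, scaling (quantile, array mean), background corrected by normexp (offset 50), all probes, a filter on dim probes, the methods' t-test, breed as a covariate, 1 fit over all arrays, slide, scan day and replicate blocks, the probe listed by the study, and leaving arrays out. Leaving out the Inter array with raised myofibre markers or the SC array with raised smooth muscle markers, and the adipocyte covariate, were chosen after seeing the data. The code was tested on simulated data. No sequence of a probe was printed.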

Additional observations from a re-analysis of the deposited data

Results flagged for a closer look

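Within each tissue, breed and diet, the level of each gene was screened for 1 array far from the rest. Of 209 groups screened 14 had one, where chance gives about 1 in 20. In SC, PFKFB3 was 5.34 on 1 Hereford array with the next at 3.47, and 3.91 on 1 Wagyu x Angus array, below the others. PFKFB2 was -2.42 and PC 3.47 on the lowest Angus SC arrays. In IMF, PC was 2.41 on the highest Angus array, where the next was 1.42, and PDK3 was 0.21 (0.206) on the lowest Wagyu x Angus array. In Inter, PFKFB2 was -2.70 on the Wagyu x Angus array with raised myofibre markers. In Omen, PDK4 was 6.19 on the lowest Angus array and PFKFB4 0.65 on the lowest Wagyu x Angus array. In LD on pasture, PFKFB4 was 6.13 on the lowest Angus array, and among the Wagyu x Angus arrays PFKFB1 reached 2.41, PDK2 4.68 and PDK1 fell to -3.34. In LD with supplement, PFKFB1 was 1.69 on the lowest Hereford array, with the next at 2.18.

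The diet difference in LD passed the test for dependence on breed for PFKFB1 (adjusted p = 0.0135, limma) and PFKFB2 (adjusted p = 0.0216). So did 16.2% of all probes, and the differences per breed are given above. The PFKFB2 call was lost with normexp correction (adjusted p = 0.118) and by its second probe. It was also lost without Hereford supplement replicate 1 (0.0637) or without Angus supplement replicate 3 (0.0638). Diet and kill are in part confounded, as stated above. Each genotype's supplement arrays lay on 1 slide, so slide and this interaction cannot be told apart. Those of Angus were scanned on day 2 and the others on day 1, and scan day was not in the fit.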

How the results depend on the processing

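Of the values of member counts under another setting, 384 of 409 stayed within 1.5 times the count reported and 25 did not. The 384 include counts of 0 that stayed 0, as in the breed tests within fat depots. Of the values of single genes, 1633 of 1720 kept the side of the threshold and, where the test has a direction, the direction. F tests, which have none, are among the 1720. The array numbers limit all of these, most of all scan day as a block, which rests on the few arrays that share a day and could not be fitted for Inter against SC or IMF against Inter. The causes of the changes below were not tested.

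The share of all probes called is in brackets. With scan day as a block the counts were 4 for IMF minus SC (6847 of 34227 probes), 3 for Kid minus SC (32.9%), 3 for Omen minus SC (4.41%), 1 for IMF minus Kid (4.95%), 0 for Inter minus Omen (1.42%), 0 for Kid minus Omen (0.821%) and 2 for diet (6.74%); over all 96 arrays they were 1 for Inter minus Kid (22.7%), 1 for Inter minus Omen (21.0%) and 2 for diet (3.57%). With slide as a random block they were 0 for Inter minus Omen (6.36%) and 0 for diet (0.00292%, or 1 probe). Normexp gave 1 for Inter minus Omen (15.1%), 2 for diet (3.30%) and 1 for diet by breed (3.32%), and the split of calls into higher and lower moved to 2 and 5 in Inter minus SC, 4 and 5 in Kid minus SC and 2 and 6 in Omen minus SC. The authors' table gave 1 for Inter minus Kid and 1 for Inter minus Omen, array-mean centring and all probes gave 1 each for Inter minus Omen, 1 fit over all arrays gave 1 for Inter minus Kid, and the study's own probes gave 1 for Kid minus Omen. Without the Inter array with raised myofibre markers 1 gene passed between Inter and Kid, and with the adipocyte covariate 2 passed for diet (7.28%). Leaving out 1 supplement array in turn gave 1 to 2 for diet by breed, and leaving out 1 array of a fat depot gave 0 to 0 for breed in each depot. With the replicate block, whose numbers did not pair the arrays, counts were 5 for Inter minus SC, 9 for IMF minus Omen, 1 for Inter minus Omen and 9 for LD minus Omen, and no other count changed.

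Signs turned as follows. With the study's probe, PFKFB3 was -1.07 in IMF, -0.73 in Inter, -0.30 in Kid, 0.0164 in Omen and -0.24 in LD minus SC, and 0.00 (0.0027) for diet. With normexp, PDP1 was -0.41 in Kid, -0.31 in Omen and -0.28 in Inter minus SC, and with the authors' table -0.0356 in Kid. PFKFB2 in Kid minus SC was 0.01 (0.00555) with array-mean centring, 0.01 (0.00629) with slide as a random block and 0.17 with scan day as a block. With scan day as a block PFKFB3 and PDK3 in Omen minus SC were 0.54 and -0.19, PDK3 there was -0.0269 over all 96 arrays, and PDK3 for diet was 0.0552 and 0.10. PDK3 for diet was 0.0527 with the adipocyte covariate, and PFKFB4 in Inter minus SC was -0.0919 without that Inter array and -0.0102 without the SC array with raised smooth muscle markers. Of these, PFKFB3 in Kid and in LD minus SC, PDP1 in Inter and in Omen minus SC and PDK3 in Omen minus SC had passed the test as reported.

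Normexp moved the median of all probes to -0.23 in IMF minus SC, to -0.28, -0.25 and -0.26 in Inter, Kid and Omen minus SC, to 0.12 in LD minus SC and to -0.35 in IMF minus LD, and quantile normalization to -0.15 in IMF minus LD. PDK4 in IMF minus LD missed the threshold with quantile normalization (-0.19).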
